A study of Mus musculus with 20 samples.

Results

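The accessible chromatin of mouse epidermal cells 8 weeks after the first wound was compared with that of the same sorted cells in homeostasis. The cells, sorted as Lrig1 GL and Sca1+, came from mice of the genotype Lrig1CreER/Rosa-TdTomato, which every group shares. Of the 20 ATAC-seq libraries of the series, 4 belong to the comparison, 2 for each group. Its members are 2 of the 10 deposited peak lists, and each was made from both libraries of its group. The homeostasis group has no wound in its label, and the 8-week group had 1 wound induction. The sources used here do not give the age and sex of the animals, the skin site the sorted cells came from, or the number of animals behind a library. The lists of the other 8 groups serve below as references. Of these, 6 are from sorted cells: vehicle, PRT4165 (an inhibitor of the histone H2A ubiquitin ligase of Polycomb complex PRC1), UVB, a wound with UVB, and 1 week after either the first or the second wound. The last pair are from cultured cells, taken from a control region without memory and from a distal memory region. The titles of this pair give 8 weeks after the first wound. The vehicle and PRT4165 libraries have 0 weeks in their titles, as those of homeostasis do.

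Lrig1 is a membrane protein that dampens signalling by the EGF receptor family and marks cells of the upper hair follicle. In these mice a Cre that acts only with an inducing ligand is produced where the Lrig1 gene is active, and its activity switches on a red fluorescent protein that the cell's descendants keep. Cells of the upper follicle can move into a wound and stay in the repaired epidermis, and epidermal stem cells can keep accessible sites after an injury has healed, which is known as wound memory. ATAC-seq maps such sites by letting the Tn5 transposase cut open DNA.

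A region here is a merged set of overlapping peaks. It was called gained if it lay in the 8-week list without an overlap of 1 bp in the homeostasis list, lost if the reverse held, and shared otherwise. Neither list holds values per library, so no difference below has a spread between replicates and none was tested. Intervals are 95% Wilson intervals for shares and cover counting error only. Signal values printed from different lists were not scaled to each other, so a difference between them is not to be read as a change.

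The promoters of 3 ligand and cytokine genes of the skin, lost at 8 weeks, are shown with 2 gained promoters of follicle and skin genes. All 5 were chosen after their values were seen. Epgn and Areg encode ligands of the EGF receptor and Il1a the cytokine interleukin 1 alpha, and the promoters of all 3 had a region in homeostasis and none at 8 weeks. Hopx, a homeodomain factor of hair follicle stem cells and differentiating epidermis, and Lgr6, a stem cell receptor of the upper follicle, had a promoter region at 8 weeks and none in homeostasis. Each line gives the 250 bases before the annotated start, 5′ to 3′ on the gene's strand, from RefSeq with GRCm38.p6, the assembly that mm10 names. The positions are chr5:91027267-91027516 for Epgn and chr5:91139349-91139598 for Areg on the plus strand, and chr2:129309973-129310222 for Il1a, chr5:77115124-77115373 for Hopx and chr1:135105277-135105526 for Lgr6 on the minus strand. Capitals mark matches, on either strand, to short motifs: the CRE (TGACGTC), AP-1 (TGANTCA) and Sp/Klf (GGGCGG) motifs are the ones present.
Epgn: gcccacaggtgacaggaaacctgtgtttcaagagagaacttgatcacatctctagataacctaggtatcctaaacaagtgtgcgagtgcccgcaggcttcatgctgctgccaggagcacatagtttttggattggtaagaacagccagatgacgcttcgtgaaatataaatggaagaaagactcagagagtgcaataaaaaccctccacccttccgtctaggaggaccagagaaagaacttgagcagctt
Areg: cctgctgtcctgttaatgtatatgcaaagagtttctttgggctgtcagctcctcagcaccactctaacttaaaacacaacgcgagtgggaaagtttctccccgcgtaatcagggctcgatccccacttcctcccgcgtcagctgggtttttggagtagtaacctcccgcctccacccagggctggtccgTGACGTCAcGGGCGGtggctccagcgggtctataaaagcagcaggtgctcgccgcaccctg
Il1a: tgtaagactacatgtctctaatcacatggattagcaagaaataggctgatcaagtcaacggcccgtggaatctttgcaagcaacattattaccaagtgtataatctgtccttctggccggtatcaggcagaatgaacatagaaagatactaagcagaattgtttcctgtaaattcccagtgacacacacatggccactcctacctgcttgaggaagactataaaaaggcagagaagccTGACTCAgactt
Hopx: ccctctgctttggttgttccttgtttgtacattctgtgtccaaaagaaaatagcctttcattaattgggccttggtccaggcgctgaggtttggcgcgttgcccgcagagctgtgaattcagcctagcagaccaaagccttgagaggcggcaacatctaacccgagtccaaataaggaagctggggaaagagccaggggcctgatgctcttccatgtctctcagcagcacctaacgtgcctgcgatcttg
Lgr6: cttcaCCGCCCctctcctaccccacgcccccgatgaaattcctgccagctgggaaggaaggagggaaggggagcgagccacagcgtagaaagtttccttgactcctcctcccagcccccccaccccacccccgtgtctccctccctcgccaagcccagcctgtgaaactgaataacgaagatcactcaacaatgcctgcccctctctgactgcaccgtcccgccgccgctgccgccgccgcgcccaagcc
A CRE match lay beside an Sp/Klf match in Areg, an AP-1 match stood near the start of Il1a, and Lgr6 held an Sp/Klf match, while Epgn and Hopx held no match to any of the 10 motifs searched. Of all 21263 promoter windows in the RefSeq table, counted with 50 further bases after the start, 3.84% held the CRE motif, 6.99% AP-1 and 46.2% Sp/Klf. A match describes the letters only. No peak positions within these windows were tied to a motif.

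The 8-week list held 34644 regions and the homeostasis list 35195. Gained regions numbered 6195, or 17.9% of the 8-week list (17.5 to 18.3). Lost regions numbered 6712, or 19.1% of the list of homeostasis (18.7 to 19.5). Gained and lost regions were the weaker ones of their lists. The median gained region had a signal value of 7.46, which placed it at percentile 26.8 of the 8-week list, and the median lost region one of 6.83, at percentile 22.8 of the homeostasis list. Shared regions had a median of 10.02 in the 8-week list. Among gained regions 17.5% were among the strongest 50% of their list by signal, and among lost regions 13.2%, against 57.1% of shared regions of the 8-week list. The authors' score, which has a maximum of 1000, was under 700 for 58.1% of gained, 52.2% of lost and 14.7% of shared regions of the 8-week list. Gained and lost regions were also narrower, with median widths of 462 and 447 bp against 667 bp for shared ones.

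**Figure D1:**
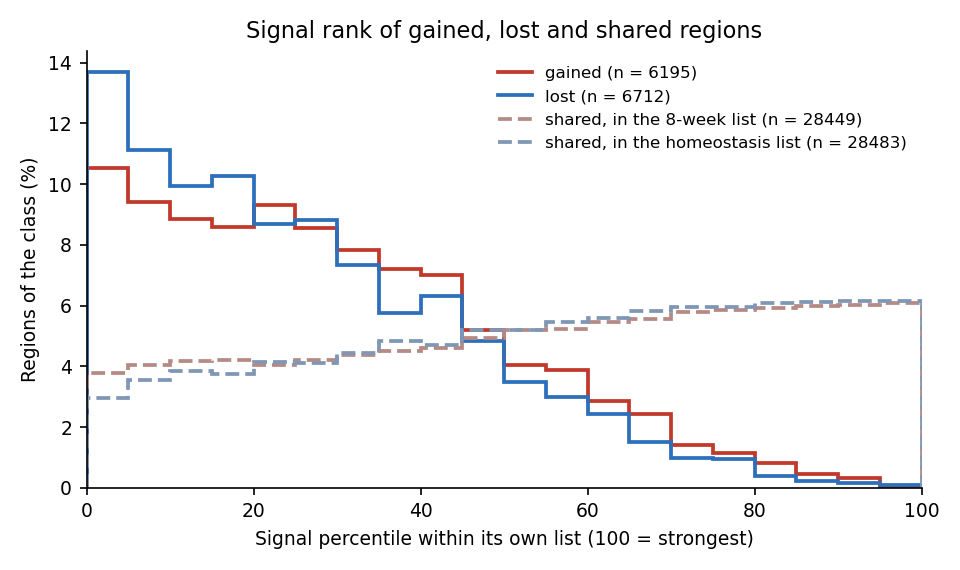
Signal percentile of each region within its own list (x axis, 100 is the strongest region) against the share of the class in steps of 5 points (y axis, %). Gained (red) and lost (blue) regions concentrate at low percentiles, with medians of 26.8 and 22.8, while shared regions (dashed) spread over the whole range.

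Most changed regions were not adjacent to a counterpart. The nearest region of the other list lay within 200 bp for 3.73% of gained and 4.92% of lost regions, and the median gap was 9872 bp and 8182.5 bp. The classes differed in where they lay. A summit within 1 kb of an end of a protein-coding gene was found for 9.20% of gained regions (interval 8.51 to 9.95), for 17.7% of lost regions (16.8 to 18.6) and for 31.6% of shared ones. The intervals of gained and lost do not overlap. Summits inside a gene were about as frequent in both, with 53.4% of gained and 51.2% of lost regions. Exon, intron and UTR were not separated, since only the span of each gene was used.

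Nearly all gained and lost regions were held by other lists of the series. Of the gained regions 84.7% lay in 5 or more of the other 8 lists, of the lost regions 84.9%, and of the shared regions 99.3%. Only 24 gained and 32 lost regions lay in none of them. The list of 1 week after the first wound held 78.3% of the gained and 76.8% of the lost regions, and the list of 1 week after the second wound 63.0% and 56.9%. The vehicle list, which has 70008 regions, held 93.8% and 94.96%. A region that the 8-week list gained over homeostasis was therefore usually present in the vehicle list too. The vehicle libraries, like those of homeostasis, have 0 weeks in their titles. The other lists hold between 42200 and 73340 regions, so a share also moves with the length of the list. With the homeostasis list cut to the length of the 8-week list, the counts were 6360 gained and 6382 lost regions, or 49.9% gained (interval 49.05 to 50.8), against 48.0% (47.1 to 48.9) as deposited.

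Regions gained at 8 weeks, absent from vehicle and present in at least 1 of the 1-week wound lists numbered 210, and 81 of these lay in both wound lists. They were 3.39% and 1.31% of the gained regions. For the lost regions the same counts were 180 and 50, or 2.68% and 0.745%. Lost regions that neither 1-week wound list held numbered 1112 (16.6%), against 876 such gained regions (14.1%). In cultured cells, the distal memory list alone held 192 gained regions and the control list alone 596, and for lost regions the counts were 234 and 736. Among shared regions the control list alone held 1613 and the distal list alone 394, so the longer control list held more of all 3 classes. The PRT4165 list without vehicle held 253 gained and 199 lost regions, and vehicle without PRT4165 held 300 and 344.

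**Figure D2:**
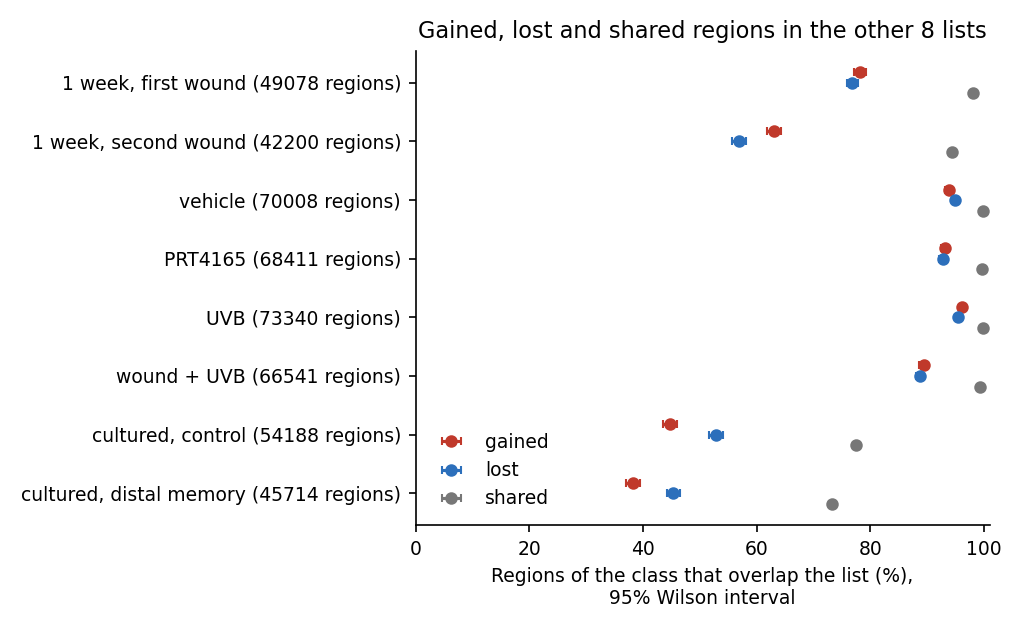
Share of gained, lost and shared regions (x axis, %, with 95% Wilson intervals) that overlap each of the other 8 lists (y axis, with the number of regions in the list). Gained and lost regions lie below shared regions in each list, from 38.3% of gained regions in the cultured distal memory list to 96.1% in the UVB list.

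Promoters had more lost than gained regions. Of the 9979 promoter windows (250 bases before to 50 after a start) with a region in homeostasis, 813 were lost (8.15%), and of the 9462 with a region at 8 weeks, 320 were gained (3.38%). A further 128 windows were reached in 1 list only by the edge of a region that the other list shares, and they count as neither. Lost windows were CpG-rich, with a median of 21 CpG and 62.7% GC, close to the 23 CpG and 62.3% GC of shared windows, and gained ones had 16.5 CpG and 60% GC. Windows with no region in either list had a median of 4 CpG. The Ets motif (CCGGAAG) was found in 11.9% of gained and 11.4% of lost windows, against 21.7% of shared and 3.23% of closed windows. Lost windows had a median signal percentile of 22.9 in homeostasis, and shared windows one of 74.5. In the list of 1 week after the first wound 86.1% of the lost windows had a region, in that of 1 week after the second wound 64.6%, and in vehicle 97.05%.

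The gene lists of skin compartments, pathways and other cell types had 405 genes in the promoter table, with 526 windows. Of these, 35 windows of 31 genes were lost, 8 windows of 8 genes were gained and 251 were shared. The 31 lost promoters were present in the 1-week list of the first wound for 30 genes and in that of the second wound for 22. In vehicle 29 of them had a region, and 17 had one in all of the other 8 lists. Mmp14, a matrix metalloproteinase, was in homeostasis only, with a signal value of 3.48 at percentile 0.472.

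Innate inflammation had the most lost promoters of any pathway list, 7 of the 18 windows with a lost or shared region (38.9%, against 8.21% over all genes on that count). Il1a had a signal value of 11.5 in homeostasis, at percentile 72.5, and its promoter was absent at 8 weeks and 1 week after the second wound. It had a value of 10.2 at 1 week after the first wound, 14.1 in vehicle, 19.5 in PRT4165, 22.1 in UVB and 19.6 in wound with UVB, and 12.8 and 12.5 in cultured control and distal memory cells. Rela, the p65 subunit of NF-kappaB, had 8.25 in homeostasis and a region in every list except that of 8 weeks. Nfkb2, which encodes the p100 precursor of NF-kappaB, lost a region that covers 2 of its starts (5.82 in homeostasis) and kept a shared start. Il1r1, the receptor of interleukin 1, lost 1 start (8.52) and also kept another. Tlr2, a receptor for bacterial lipoproteins, had 5.34 in homeostasis and 10.2 at 1 week after the second wound. Ccl20, a chemokine for Langerhans cell precursors and T cells, had 6.96 in homeostasis and was also absent from the UVB list. In the opposite direction Il18, another cytokine of keratinocytes, had a promoter region of 7.95 at 8 weeks and none in homeostasis. Over all their regions the members of this list were even, with 20 gained and 20 lost.

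Wound-activated keratinocyte genes had 4 of 10 such windows lost, those of Areg, Mmp14 and 2 starts of Tnc. Areg had a signal value of 9.64 in homeostasis, 7.92 and 8.53 in the 1-week lists of the first and the second wound, and 14.6 in vehicle. PRT4165 gave 16.3, UVB 15.8, wound with UVB 13.4, cultured control cells 11.2 and cultured distal memory cells 10.8, so the 8-week list alone had no region at the Areg promoter. The unequal values of wound with UVB and of cultured control cells stood at percentiles 65.3 and 65.5 of their lists. A second Areg region inside the gene, 3198 bp from its end, was lost as well, while 2 regions outside it were gained, at distances of 14659 and 50351 bp. Tnc encodes the wound matrix protein tenascin C. Its promoter had 5.57 in homeostasis and between 7.0 and 11.4 in the other 8 lists. The other 2 lost Tnc regions lay at 40872 and 85403 bp from the gene, and both were also absent 1 week after the second wound. Interferon genes had 4 of 14 windows lost. These were the promoter of Ddx58, the viral RNA sensor RIG-I (7.55 in homeostasis), 2 starts of the transcription factor gene Irf1 under 1 region (6.19), and Ifit1, an interferon-induced gene (6.88). The Ifit1 region was otherwise found in both 1-week wound lists and PRT4165 and in no other list.

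No lost promoter was found among 23 windows of p53 and DNA damage response, 15 of cell cycle, 23 of glycolysis and hypoxia, and 17 of the circadian clock, where 8.21% were lost over all genes. The windows per list are few, and TGF-beta and BMP genes had 1 of 14 lost (7.14%). Other lost promoters belonged to Notch ligands Dll1 (3.74 in homeostasis, at percentile 0.764) and Jag2 (3.88, at percentile 0.992), to the AP-1 subunit Junb (3.81, at percentile 0.861), to the Wnt receptor Fzd10 (5.68) and the Wnt effector Lef1 (4.63), and to the inhibitory Smad6 (5.31). Polycomb genes Cbx7 (7.76) and Jarid2 (5.06, with another start shared) were among them. Gained promoters were led by Hopx, with 10.3 at 8 weeks (percentile 59.4) and a region in all lists except homeostasis. Wnt11, a secreted Wnt ligand, had 6.46 at 8 weeks, and Lgr6 had 6.84, and neither had a region in cultured cells. The antigen presentation gene H2-Aa had 9.20. The remaining gained promoters were those of Hoxd10 (5.16), Six2 (4.87) and Mgst1 (4.87). Of the 8 gained promoters all had a region 1 week after the first wound, in vehicle, in PRT4165, in UVB and in wound with UVB.

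**Figure D3:**
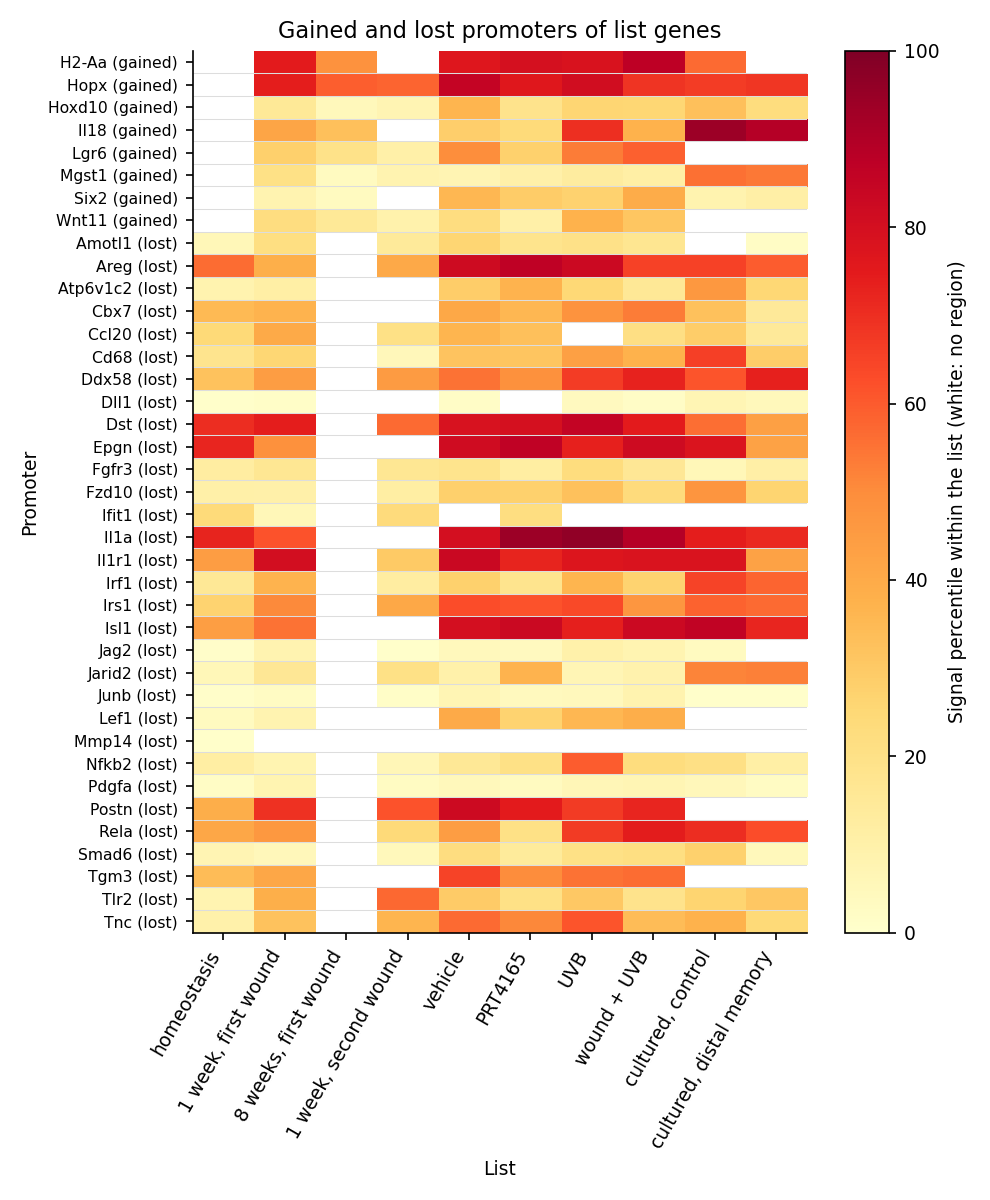
Promoters of list genes that were gained or lost (rows) in each of the 10 lists (columns), coloured by the signal percentile of the region within its list, with white for no region. The homeostasis column is empty for the 8 gained promoters and the 8-week column for the 31 lost ones, and most other cells are filled.

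Outside the lists, the strongest lost promoters were those of Akr1e1, an aldo-keto reductase (15.8 in homeostasis), Gtf3c3, a subunit of RNA polymerase III factor TFIIIC (15.8), and Magoh, a subunit of the exon junction complex (14.1). All 3 had a region in both 1-week wound lists and in vehicle, with 12.8, 18.02 and 23.3 for Akr1e1 and 13.0, 13.9 and 16.4 for Magoh. The strongest gained promoters were those of Mef2b, a MADS-box transcription factor (16.1 at 8 weeks), Zfp59, a zinc finger gene (15.1), and Il1f8, an interleukin 1 family cytokine (14.4). Il1f8 had 17.3 at 1 week after the first wound, 6.39 at 1 week after the second wound and 21.1 in vehicle. These 6 promoters were chosen for their signal after the values were seen. The promoters searched hold no chromosome 18, where a lost region 250 bp from an end of Pggt1b had 16.1 in homeostasis.

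Each region was next assigned to the gene that contains its summit or, failing that, to the nearest gene end within 100 kb. Of 13663 genes with a region, 2739 had more gained than lost regions (20%) and 3179 more lost than gained (23.3%). The other 7745 were even, which includes genes without a changed region. Gene lists were not matched to all genes by the number of regions per gene. Shares of members with more gained or more lost regions, given below beside those of all genes, are therefore not like for like. Over all genes 5670 gained and 6191 lost regions were assigned, so 47.8% of changed regions were gained (interval 46.9 to 48.7). The homeostasis list is the longer one. Of the 27 gene lists, 16 had more lost than gained regions, 7 more gained, and 4 were even. With the homeostasis list shortened to the 34644 strongest regions, as many as at 8 weeks, the count of lists with more lost regions was 12. In 3 lists the interval of the gained share lay below 50%, and in none above it. Only that of growth factor receptor signalling lay below the 47.8% of all genes. At equal length the interval of growth factor receptor signalling alone lay below 50% (16 gained and 37 lost, interval 19.5 to 43.5). Basal layer genes then had 14 gained and 20 lost (26.4 to 57.8) and p53 and DNA damage genes 17 and 26 (26.4 to 54.4), and the interval of the circadian clock list (18 and 8) began at 50.01%. With the limit of 100 kb cut to 20 kb, growth factor receptor signalling had 14 gained and 26 lost (22.1 to 50.5). In that setting the intervals below 50% were those of basal layer genes (11 and 24, 18.6 to 48.0) and Polycomb subunits (3 and 11, 7.57 to 47.6).

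Growth factor receptor signalling had the largest difference of the 27 lists, with 16 gained and 38 lost regions (29.6% gained, interval 19.1 to 42.8). Of its 27 members with a region, 14 had more lost and 5 more gained regions, or 51.9% and 18.5%, against 23.3% and 20% of all genes. The other 8 members were even, and of the 13663 genes 7745 were, so these shares are not matched. The ligand Epgn had 3 lost regions, none gained and 1 shared. Its promoter region was at percentile 72.1 of the homeostasis list (11.5). It had 8.84 at 1 week after the first wound, 14.5 in vehicle, 16.2 in PRT4165, 13.6 in UVB, 17.1 in wound with UVB, 13.5 in cultured control cells and 8.75 in cultured distal memory cells, and it was absent 1 week after the second wound as at 8 weeks. Egf and Btc, other EGF receptor ligands, each had 1 lost region and none gained, and Tgfa had 2 gained and 1 lost.

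Among the receptors Igf1r, which binds insulin-like growth factors, had the lowest balance of all genes, 1 gained and 8 lost regions, with 9 shared. Of the lost regions, 6 lay inside the gene, and the strongest, chr7:68039980-68040652, had a signal value of 10.6 at percentile 65.0. All but 1 of the 8 were also in the 1-week list of the first wound. The gained region inside Igf1r, chr7:68070545-68070932, had 10.3. Fgfr2, a receptor of fibroblast growth factors, had 2 gained and 5 lost regions. A gained and a lost Fgfr2 region, chr7:130265341-130265927 and chr7:130264964-130265316, lay beside each other without overlap, and each of the other 8 lists has the same signal value at both. Fgfr3 had 2 lost regions, at its promoters (5.89) and 5027 bp outside the gene (5.57). Egfr itself had 1 gained, 2 lost and 8 shared regions. Of the inhibitors and adaptors, Errfi1, a feedback inhibitor of the EGF receptor, had 3 lost regions, between 10381 and 49567 bp outside the gene, with 7.52 to 8.11 in homeostasis. Dusp6, a phosphatase of ERK, had 2 lost regions, and the insulin receptor substrate gene Irs1 lost its promoter (7.12). Lrig2, a relative of Lrig1, had 2 gained and none lost.

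The lost regions of this list were not restricted to homeostasis. The first-wound list of 1 week held 35 of the 38, the second-wound list 24, and vehicle all 38. The 16 gained regions were in the first-wound list for 15 and in vehicle for 16. Among strong regions absent from the whole other list it had 4 gained and 5 lost. Without Igf1r the list had 15 gained and 30 lost regions (33.3%, interval 21.4 to 47.9).

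Basal layer and hemidesmosome genes had 12 gained and 25 lost regions (32.4%, interval 19.6 to 48.5), with 10 of 17 members having more lost and 3 more gained. That was 58.8% and 17.6% of members, against 23.3% and 20% of all genes. Trp63, the master transcription factor of stratified epithelium, had 1 gained, 5 lost and 9 shared regions. The 5 lost Trp63 regions had 5.98 to 8.18 in homeostasis, at percentiles 13.0 to 40.3, and 3 of them lay outside the gene. Col17a1, a hemidesmosome collagen, had 3 lost and 3 shared regions, and Krt14, the basal keratin, 2 lost and 3 shared. Dst, a linker of keratin to hemidesmosomes, had 2 gained and 5 lost, and 1 lost region at an inner start of the gene was strong, with 11.2 at percentile 70.3. Lama3, a laminin 332 chain, had 2 lost regions, and 1 of them, at percentile 86.7 (14.0), was in all of the other 8 lists. Plec, which encodes plectin, went the other way with 4 gained and none lost. All 4 Plec regions were weak, with 3.39 to 4.88 at 8 weeks, at percentiles 0.335 to 3.38. Without Trp63 the list had 11 gained and 20 lost regions, and its interval then reached 53.1%.

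Desmosome and adherens junction genes had 8 gained and 16 lost regions, and 7 of 17 members had more lost (41.2%, against 23.3% of all genes). Lost regions were 17.98% of its regions in homeostasis, against 18.8% over all genes, and at equal length the list was even, with 11 and 11. Cdh3, encoding P-cadherin, had 3 lost and 7 shared regions, and Cdh1, Perp and Dsc1 had 2 lost each and none gained. Dsc2 had 2 gained and 1 lost. Epidermal differentiation was closer to even, with 22 gained and 28 lost, and 3 and 2 among strong regions absent from the whole other list. Tgm3, a transglutaminase of the hair and granular layer, had 3 gained and 6 lost, Prdm1 none and 3, Lor none and 2, and Cebpb 2 and 5, while Hopx had 3 and 2.

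Upper follicle genes, the home compartment of the sorted lineage, were even with 15 gained and 15 lost regions in 15 genes. Lrig1 itself had 4 lost, none gained and 8 shared regions. The 4 lost regions had 4.87 to 6.84 in homeostasis, at percentiles 4.64 to 22.9, 2 lay inside the gene, and all 4 had a region 1 week after the first wound, in vehicle, in PRT4165 and in UVB. The gene's 8 shared regions had a median rank shift of −0.86 points. Krt17 had 2 lost regions. Sostdc1, a secreted inhibitor of Wnt and BMP signals, had 3 gained regions, 1 of them 37 bp from the gene end (4.65 at 8 weeks), and none lost. Krt79, a keratin of the cells that line the upper follicle, had 2 gained and none shared, with 6.32 and 6.15, and Teddm3 had 2 gained. Both Krt79 regions were in both 1-week wound lists and in vehicle, PRT4165, UVB and wound with UVB. Teddm3 had 1 region, chr16:21151291-21151903, that only the 8-week, UVB and wound with UVB lists held.

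Bulge and lower follicle genes had 20 gained and 16 lost regions. Krt75, a keratin of the companion layer, had 4 gained regions and no other, with 5.41 to 8.03 at 8 weeks, and all 4 were in both 1-week wound lists, in vehicle, in PRT4165 and in both UVB lists. Lgr6 had 2 gained and 1 shared. Nfatc1, a quiescence factor of bulge stem cells, had 1 gained, 3 lost and 18 shared, and the Hedgehog effectors Gli1 and Gli2 had 2 lost each. Sox9, Lgr5 and Cd34 had 1 gained each and none lost. Sebaceous gland lipid genes had 10 gained and 10 lost.

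**Figure D4:**
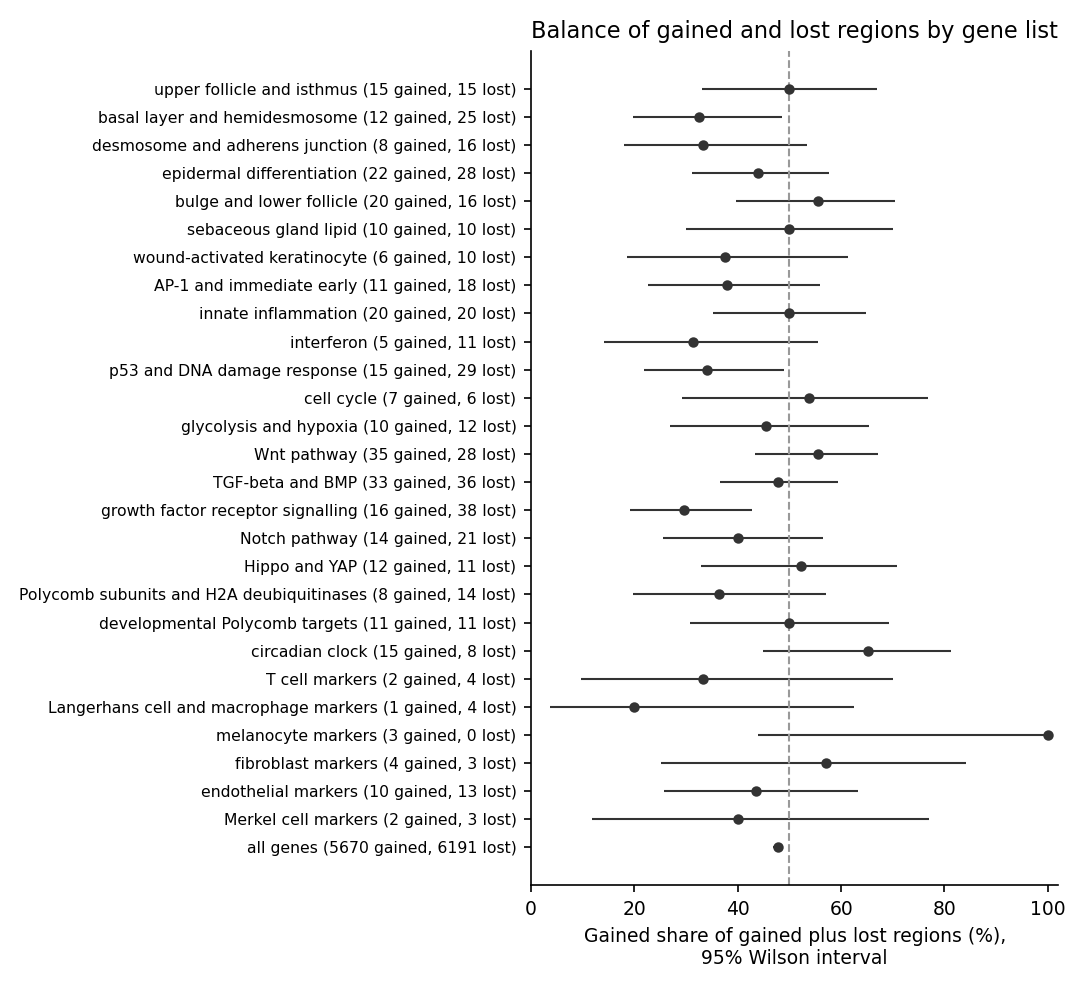
Gained regions as a share of gained plus lost regions (x axis, %, points with 95% Wilson intervals) for the members of each gene list (y axis, with counts) and for all genes, with a dashed line at 50%. The interval is below 50% for 3 lists: growth factor receptor signalling, basal layer and hemidesmosome, and p53 and DNA damage response. Over all genes the share is 47.8%, and only the interval of growth factor receptor signalling lies below that. Values are for the lists as deposited, and at equal length only the interval of growth factor receptor signalling is below 50%. With genes within 20 kb that interval reaches 50.5%.

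Wnt pathway genes had 35 gained and 28 lost regions (55.6% gained, interval 43.3 to 67.2). Of 29 members 11 had more gained and 8 more lost. That was 37.9% and 27.6% of members, against 20% and 23.3% of all genes. Ligands differed among themselves. Wnt10a, a ligand of hair and tooth development, had 6 lost, none gained and 2 shared regions. Of the lost Wnt10a regions, 5 lay within 3090 bp of a gene end and were weak, with 3.24 to 5.32 in homeostasis. The remaining one, chr1:74816721-74817330, lay 12840 bp outside the gene, had 12.8 at percentile 80.7 and was in all of the other 8 lists. Wnt5a and Wnt11 had 2 gained each and none lost. Among receptors Lrp5 had 4 gained, Lrp6 3 and Fzd7 3, with none lost, and Ror2 had 4 gained and 1 lost, while Fzd10 had 1 gained and 4 lost. The strongest Lrp5 region had 10.1 at percentile 57.2. The nuclear effector Lef1 had 2 gained and 3 lost, and a lost Lef1 region 84553 bp outside the gene was among the strongest of all, with 16.2 at percentile 93.6 in homeostasis, 13.6 and 11.7 in the 1-week lists of the first and the second wound, and 22.3 in vehicle. Without Wnt10a the counts were 35 and 22 (61.4%, interval 48.4 to 72.9). With genes within 20 kb the list was even, with 22 gained and 22 lost regions. Its strong regions absent from the whole other list were even too, with 4 and 4.

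TGF-beta and BMP genes had 33 gained and 36 lost regions, and 35 and 31 at equal length. The ligand Tgfb2 had 4 lost, none gained and 4 shared regions, with 6.33 to 8.57 in homeostasis, and all 4 were in vehicle, PRT4165, UVB and wound with UVB. The co-receptor Tgfbr3 had 6 gained and 2 lost, and the receptor Tgfbr2 had 4 and 2. The strongest gained Tgfbr3 region had 8.86 at percentile 44.0, and the strongest lost one 9.19 at percentile 51.8. Of the targets Smad7 had 3 gained and 5 lost, and Id3 1 and 3. The ligand Bmp4 had 2 lost, and Bmp7 4 gained and 3 lost. Notch pathway genes had 14 gained and 21 lost regions: Notch1, Jag1 and Hes1 had 2 lost each and none gained, and the coactivator Maml2 had 4 gained and 1 lost.

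The p53 and DNA damage list had 15 gained and 29 lost regions (34.1%, interval 21.9 to 48.9). Of its 23 members 9 had more lost (39.1%, against 23.3% of all genes) and 3 more gained (13.0%, against 20%). Rad51b, a recombination gene whose span holds many regions, made up 6 of the gained and 11 of the lost. Without it the counts were 9 and 18, and the interval reached 52.2%. The growth arrest genes Gadd45g and Gadd45a had 3 and 2 lost and none gained, Pmaip1, encoding the death protein NOXA, 2 lost, and the death receptor gene Fas 1 gained and 3 lost, whereas Gadd45b had 3 gained and 1 lost. AP-1 and immediate early genes had 11 gained and 18 lost, with Fosb, Jund and Egr3 at 2 lost each and Fosl2 at 2 gained. At equal length their direction turned, with 16 gained and 14 lost, and 16.7% of their regions in homeostasis were lost, below the 18.8% over all genes. Interferon genes had 5 gained and 11 lost, of which 1 and 6 belong to Irf2bpl, a regulator of transcription and no interferon gene. Cell cycle genes had 7 gained and 6 lost, 4 of them lost at the cyclin gene Ccnd2. Glycolysis and hypoxia genes had 10 and 12 (10 and 8 at equal length), with Hk2, the inducible hexokinase, at 3 gained and none lost and Gapdh at 2 lost. Hippo and YAP genes had 12 and 11.

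Circadian clock genes had the highest gained share among the pathway lists, 15 gained and 8 lost (65.2%, interval 44.9 to 81.2). Among strong regions absent from the whole other list the direction turned, with 1 gained and 2 lost. Rora, a nuclear receptor that activates Bmal1, had 3 gained, none lost and 11 shared regions, all 3 inside the gene. The strongest of them had 13.2 at 8 weeks, at percentile 80.4, and the others 5.64 and 7.56. Tef, a clock output factor, had 2 gained, and Nr1d1, which encodes REV-ERB alpha, 1. Nr1d1 gained a region 546 bp from the gene end (3.96) that both 1-week wound lists, PRT4165 and UVB held and vehicle did not. Arntl, which encodes Bmal1, had 1 gained, 2 lost and 11 shared.

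Polycomb subunits and H2A deubiquitinases had 8 gained and 14 lost regions, and 9 of 30 members had more lost and 3 more gained. That was 30% and 10% of members, against 23.3% and 20% of all genes. Lost regions were 20.3% of the list's regions in homeostasis, near the 18.8% over all genes. Among strong regions absent from the whole other list these genes had 3 gained and none lost. With genes within 20 kb the list had 3 gained and 11 lost (21.4%, interval 7.57 to 47.6). Rybp, a subunit of variant PRC1, had 3 gained and none lost, the strongest with 11.6 at percentile 70.2. Pcgf5, another variant PRC1 subunit, had 1 gained and 3 lost, and Cbx2, a reader of H3K27 methylation, had 2 lost and no other region. Ezh2, Kdm2b, Phc1 and the deubiquitinase gene Mysm1 had 1 lost each. Developmental genes known as Polycomb targets in many tissues had 11 gained and 11 lost regions. Hoxb1 and Dlx5 had 2 lost each, and Hoxd10, Six2, Pax7, Tbx5 and En1 1 gained each.

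Across all genes Arhgef28, a RhoA exchange factor, and Tbc1d1, a Rab GTPase-activating protein, had the highest balance, with 9 gained and 3 lost and with 8 gained and 2 lost regions. The 9 gained Arhgef28 regions had 6.01 to 9.91 at 8 weeks, 4 of them lay outside the gene, and all 9 were in vehicle. The strongest gained Tbc1d1 region, chr5:64196078-64196681, had 14.5 at percentile 87.0. The transcription factors Zbtb20 and Foxp1 had 5 gained and none lost each. Among the Zbtb20 regions the strongest had 13.6 at percentile 82.8, and all 5 were in both 1-week wound lists and in vehicle. Kalrn, Eva1a, Cpne8, Farp1, Macf1, Man1c1, Rnf152 and Fmnl2 had the same counts, and the kinase gene Sik3, Tspan9 and Arhgap26 had 6 gained and 1 lost. At the other end, after Igf1r, Eml4, which encodes a microtubule-binding protein, had 1 gained and 7 lost regions and Dlg2, a scaffold gene, none and 5. Atp10a, the calcium channel gene Cacna1c and the receptor kinase gene Alk had 2 gained and 6 lost each. A balance of 5 is shared by 16 genes and one of −4 by 48, so the lower places among these 30 genes rest on summed signal.

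The strongest gained regions were one inside Mbtd1, a Polycomb-related malignant brain tumour domain gene (21.4 at 8 weeks, 23.2 at 1 week after the first wound), one more than 100 kb from any gene, chr10:17034819-17035467 (19.3), and one inside Galnt7 (18.4). The strongest lost regions were a 209 bp one inside Zfp949 (26.5 in homeostasis), a 229 bp one near Sulf1 (23.0), a 645 bp one inside Kcnq1 (21.6), and a 197 bp one inside Izumo1 (20.9). Of these 4, only the Kcnq1 region was in the 1-week list of the first wound (23.7), while the list of 1 week after the second wound held all 4. The narrow regions stood at the very top of that list, with 46.03 for Zfp949, 45.9 for Sulf1 and 37.9 for Izumo1. In vehicle the Zfp949 and Sulf1 regions were absent and Izumo1 had 9.59. Regions under 250 bp were 418 of the gained (6.75%), 596 of the lost (8.88%) and 1.18% of shared regions of the 8-week list.

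Among 1005 miRNA hairpins of the RefSeq table, 16 had a gained region within 1 kb (1.59%), 25 a lost one (2.49%) and 108 a shared one. Hairpins were counted singly, so a lost region near several hairpins, as at Mir9-1 and Mir3093 or Mir5132 and Mir718, enters more than once. The gained hairpins did not share regions, so this repeat counting raised only the count of lost hairpins. The 1.59% and 2.49% are shares of hairpins and not of loci. The mature forms below belong to miRNAs of known expression in skin or nerve and to a pair that share a seed. Capitals mark the seed, bases 2 to 8.
miR-23b-5p: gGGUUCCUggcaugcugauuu
miR-27b-3p: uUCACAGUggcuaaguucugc
miR-24-3p: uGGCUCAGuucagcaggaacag
miR-9-5p: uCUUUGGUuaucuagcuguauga
miR-203-3p: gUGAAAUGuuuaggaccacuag
miR-148a-3p: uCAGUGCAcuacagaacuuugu
miR-152-3p: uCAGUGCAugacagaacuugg
Mir23b, Mir27b and Mir24-1 are a cluster on chromosome 13 and share 1 lost region (3.97 in homeostasis), which was also absent 1 week after the second wound and from the PRT4165 list and both lists of cultured cells. The region near Mir9-1, an miRNA of neural cells, had 10.5 in homeostasis and 9.29 at 1 week after the first wound and was absent 1 week after the second wound. Mir203, which restrains proliferation as keratinocytes leave the basal layer, had both a lost and a shared region in its window. The 3p forms of Mir148a and Mir152 have the same seed, CAGUGCA, and the 2 loci were of opposite class. Mir148a on chromosome 6 had a lost region (5.07 in homeostasis) and Mir152 on chromosome 11 a gained one (7.17 at 8 weeks), and both had a region 1 week after the first wound and in vehicle.

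In shared regions the order of signal values was close in the 2 lists. For 27493 regions that paired 1 to 1, Spearman's rho was 0.857 across regions, which share libraries and are not independent replicates. The shift of a region's rank, in percentile points from homeostasis to 8 weeks, had an SD of 15.5 over regions. It was 25 points or more upward in 1607 regions (5.85%) and downward in 1450 (5.27%). Within 1 kb of a gene end 180 regions were up (2.11%, interval 1.83 to 2.44) and 469 down (5.50%, 5.03 to 6.0), with a median shift of −1.21 points. Farther away 1427 were up (7.53%, 7.16 to 7.91) and 981 down (5.17%, 4.87 to 5.50), with a median of 0.33. The intervals of the upward shares do not overlap, while those of the downward shares do. A region near the top rank in homeostasis cannot rise by 25 points, and shared promoter windows had a median percentile of 74.5 in that list. The upward shares near and far from gene ends are therefore not like for like. The lost regions described above were more frequent near gene ends than the gained ones. Both observations come from the same 2 lists.

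The largest upward shifts were in Mroh3, from rank 12.8 to rank 91.9, in a region of chromosome 14 more than 100 kb from a gene (chr14:73888204-73888701, from 17.6 to 92.4), in Samd5 (from 8.57 to 77.9), and near 9530068E07Rik (from 6.38 to 73.8). The largest downward shifts were at the ends of Slc36a1, an amino acid transporter gene (from 81.7 to 10.9, 19 bp from the gene end), and Emc10 (from 90.9 to 25.7, 16 bp), and in Spink5, which encodes the epidermal protease inhibitor LEKTI (from 79.4 to 14.4). All 7 of these regions were also in the list of 1 week after the first wound.

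**Figure D5:**
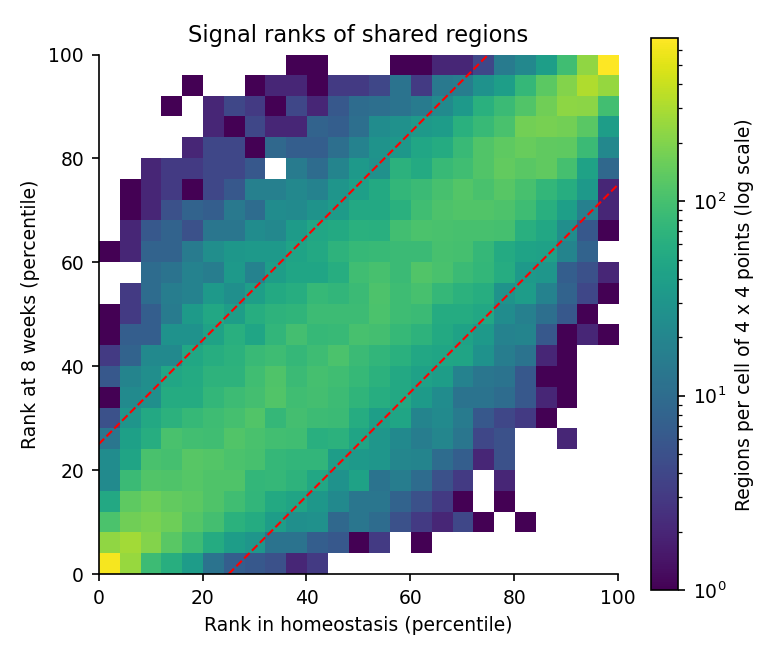
Signal rank of 27493 shared regions in homeostasis (x axis, percentile) and at 8 weeks (y axis, percentile), with the number of regions per cell in colour on a log scale. Most regions lie between the dashed lines, which mark a shift of 25 points, and 1607 regions lie on or above the upper line and 1450 on or below the lower one.

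The sorted identity was checked on markers with a region within 1 kb of either gene end. Upper follicle genes had one for 12 of 15 members in both lists, Ly6a, which encodes Sca1, among them, and basal layer genes for 13 of 18 in homeostasis and 12 at 8 weeks. Markers of other cell types had fewer. T cell markers had one for 3 of 14 in both lists, Langerhans cell and macrophage markers for 3 of 15, melanocyte markers for 4 and 3 of 11, fibroblast markers for 3 of 14, endothelial markers for 1 of 12, and Merkel cell markers for 2 and 0 of 10. A lost promoter among these was that of Cd68, a macrophage gene (6.39 in homeostasis), and the gained promoter of H2-Aa is an antigen presentation gene of Langerhans cells and macrophages. In a peak list, a change in the share of a cell type and a change within cells cannot be told apart.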

How the data were processed

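Nuclei of sorted cells were cut with Tn5 and the libraries indexed with Nextera XT primers, per the labels' protocols. Positions are in mm10, a build named by the submitters' processing notes. The sources used here do not give the aligner, peak caller, any Tn5 shift or read depth, so precision is limited by depth in an unknown way. Each deposited list gives per peak the authors' score (540 to 1000), the authors' signal value and the authors' −log10 p, and its name says that it passed a reproducibility filter between 2 replicates.

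Overlapping peaks on chromosomes 1 to 19, X and Y were merged, and a region took its signal value and summit from its strongest peak. Signal values were used to rank regions within a list only. Values printed for several lists are as deposited and were not scaled between lists. Overlaps were checked with bedtools 2.31.1, and the code was tested on simulated data. Python 3.11.15, numpy 2.4.6, pandas 2.3.3, scipy 1.17.1 and matplotlib 3.10.9 were used. Genes are the 21887 protein-coding ones of the RefSeq table for GRCm38.p6, and 563 of 567 list genes matched. Promoters and miRNAs come from RefSeq tables of that assembly, which hold no chromosome 18. Motifs were searched in promoters only, since no genome sequence was used.

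The members and gene lists were chosen with earlier results of these data known. The text names most of 15 genes at each end of the balance of gained minus lost regions, list members with a balance of 2 or more either way (most of them), members of the upper follicle, basal layer, wound-activated and Polycomb lists, the strongest gained and lost regions and the largest rank shifts. Changed promoters and miRNAs, and some list members with smaller balances, were chosen after their values were seen. Alternatives were the overlap needed, a gap of up to 200 bp, equal list lengths, only the strongest 50% of regions, single peaks, vehicle as control, a window of 500 bp, ranks by −log10 p and genes within 20 kb. Their use on promoters, and leaving out regions under 250 bp, were added after the data were seen.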

Additional observations from a re-analysis of the deposited data

How the results depend on the processing

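No paired analysis was possible because each list pools both libraries of its group, and for the same reason no library could be left out in turn. The counts of gained and lost regions changed by over 1.5 times under 3 alternatives: 3186 and 3464 with the strongest 50% of each list, 1082 and 907 for strong regions absent from the whole other list, and 442 and 35932 with vehicle, a list of 70008 regions, as the control. Gained outnumbered lost regions in the second of these. Gained and lost regions within 1 kb of a gene end were 14.0% and 20.6% with an overlap of 50% of both regions, 12.9% and 27.8% with the strongest 50%, 10.5% and 22.2% for single peaks, 6.79% and 9.91% with vehicle, and 5.88% and 13.2% with a window of 500 bp. The lost share was 16.6% when regions up to 200 bp apart counted as shared, and the gained share 7.67% for strong regions absent from the whole other list. Lost regions had the higher share in every alternative run. The Spearman correlation of signal ranks across shared regions was 0.723 with the strongest 50% and 0.843 for single peaks. Lost promoter windows outnumbered gained ones in every alternative run on them, with 314 to 354 gained and 765 to 941 lost, except that vehicle as control gave 11 and 2056. Of the 27 gene lists, 9 had more lost than gained regions among strong regions absent from the whole other list, and 12 to 17 under the other alternatives. Directions turned in 5 lists among those strong regions, with balances of 1 for p53 and DNA damage, 1 for epidermal differentiation, 1 for wound-activated genes, 3 for Polycomb subunits and −1 for the circadian clock. At equal length they turned in 3: AP-1 (2), TGF-beta and BMP (4) and glycolysis and hypoxia (2). With genes within 20 kb they turned in 1, Hippo and YAP (−1), without regions under 250 bp in 1, glycolysis and hypoxia (1), and with an overlap of 50% in none. Lists that were even, or had no changed region, numbered 8 among those strong regions, 5 with genes within 20 kb and 4 as deposited. Wnt pathway genes were even among those strong regions and with genes within 20 kb. At equal length gained and lost regions numbered 6360 and 6382. The causes were not tested.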
